A study of Mus musculus with 11 samples.

Results

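The transcription factors that set and maintain macrophage identity were measured by RNA sequencing in tumor and splenic macrophages of mice bearing Lewis lung carcinoma (LLC), a transplantable mouse lung tumor line. The set was fixed by gene name and held 9 of the 33339 genes present in both deposited tables: Spi1, Mitf, Cebpa, Cebpb, Maf, Irf8, Irf4, Nr1h3 and Pparg. All 9 passed the filter on low values in both comparisons. The study asked how Sin1, the product of Mapkap1 and a subunit of the kinase complex mTORC2, acts in tumor-associated macrophages, and how these cells differ from peripheral macrophages.

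There were 11 libraries in 3 groups. KO_TAM held 4 libraries of tumor-associated macrophages from LysMCre;Sin1fl/fl mice. WT_TAM held 4 libraries of the same cells from Sin1fl/fl mice. WT_SP held 3 libraries of splenic macrophages from Sin1fl/fl mice. All groups carried the floxed Sin1 alleles on the C57BL/6 background, were 6 to 8 weeks old and had received 500000 LLC cells under the skin, with cells taken on day 14. The sort gate for tumor macrophages was CD11b+ F4/80+ within CD45+ cells that lacked Ly6G and Ly6C. For splenic macrophages it was F4/80+ with low CD11b, and TCRβ was gated out as well. LysMCre is driven from the Lyz2 locus and acts in myeloid cells at large, not in tumor macrophages alone. Whether the libraries come from different mice is not in the labels, and p-values therefore describe only how these libraries vary, part of which may be technical.

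A macrophage is built by few factors. PU.1, the product of Spi1, opens chromatin at myeloid enhancers from the progenitor stage on, and C/EBPα (Cebpa), C/EBPβ (Cebpb) and IRF8 (Irf8) bind many of the same enhancers. Factors that respond to the surroundings then shape the tissue form: c-Maf (Maf), the sterol receptor LXRα (Nr1h3), the fatty acid receptor PPARγ (Pparg), IRF4 (Irf4), and Mitf, a regulator of lysosome and osteoclast genes. PU.1, IRF8 and IRF4 also work in B cells, and IRF4 in plasma cells.

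In the GRCm38 annotation, Spi1 lies at chr2:91082390-91115756, plus strand, and Nr1h3 close by at chr2:91184061-91202834, minus strand. Cebpb is a gene of 1 exon at chr2:167688915-167690418, plus strand, and Cebpa lies at chr7:35119293-35121928, plus strand. The interferon regulatory factors Irf8 and Irf4 lie at chr8:120736358-120756694 and chr13:30749226-30766976, both on the plus strand. Maf lies at chr8:115682942-115707794, minus strand. Pparg and Mitf share a chromosome, at chr6:115360951-115490399 and chr6:97807052-98021349, both on the plus strand. All 9 are protein coding and the values are given per gene, not per exon or transcript. The sources used here do not give the strand setting of the counting. Cebpb shares 312 of its 1504 exonic bases with Tmem189 on the other strand, so its reads may include some of that gene.

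Promoters are shown for the 2 pairs of relatives that the results set side by side: Irf8 and Irf4, which were both lower in tumor macrophages than in splenic ones, and Cebpa and Cebpb, which were both higher. Each is the 250 bases before a start that RefSeq's promoter table for GRCm38.p6 gives for the gene, read on the plus strand. That source holds 7 of the 9 genes. For Irf4 the RefSeq start lies just inside the annotated gene given above, so the window includes its first bases. Capitals mark matches to 1 of 5 motifs, searched on both strands: GAGGAA (PU box core), TTCNNNGAA (GAS element, bound by STAT factors), the core of the interferon-stimulated response element, TTGCNNAA (C/EBP site) and CACGTG (E-box).
Irf8, chr8:120736108-120736357: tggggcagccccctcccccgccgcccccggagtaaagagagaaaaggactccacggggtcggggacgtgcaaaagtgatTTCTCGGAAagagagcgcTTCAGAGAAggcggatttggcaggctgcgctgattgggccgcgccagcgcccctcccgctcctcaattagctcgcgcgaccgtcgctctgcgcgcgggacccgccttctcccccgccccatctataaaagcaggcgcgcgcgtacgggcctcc
Irf4, chr13:30748983-30749232: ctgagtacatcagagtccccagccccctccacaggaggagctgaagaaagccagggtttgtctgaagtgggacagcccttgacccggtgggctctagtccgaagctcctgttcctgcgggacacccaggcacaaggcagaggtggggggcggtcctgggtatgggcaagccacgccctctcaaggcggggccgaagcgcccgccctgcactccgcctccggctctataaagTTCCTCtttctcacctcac
Cebpa, chr7:35119043-35119292: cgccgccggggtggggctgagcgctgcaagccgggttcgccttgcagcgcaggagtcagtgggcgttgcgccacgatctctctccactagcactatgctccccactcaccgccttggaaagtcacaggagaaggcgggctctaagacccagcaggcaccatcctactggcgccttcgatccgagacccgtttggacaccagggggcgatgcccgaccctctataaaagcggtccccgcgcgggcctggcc
Cebpb, chr2:167688665-167688914: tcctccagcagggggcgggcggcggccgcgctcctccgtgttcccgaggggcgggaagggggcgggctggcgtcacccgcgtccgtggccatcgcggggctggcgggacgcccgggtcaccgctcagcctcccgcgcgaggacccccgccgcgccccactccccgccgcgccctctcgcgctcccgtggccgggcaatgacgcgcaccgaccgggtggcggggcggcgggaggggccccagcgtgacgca
The Irf8 promoter shown held the GAS letters at 171 and 153 bases before the RefSeq start, a motif present in 7.02% of the 32851 promoters of this length. RefSeq also lists an Irf8 promoter at chr8:120738389-120738638, not shown, where none of the 5 motifs matched. The Irf4 promoter held the PU box core, on the minus strand, at 19 bases before the RefSeq start. Of all promoters, 23.25% held it somewhere. None of the 5 motifs matched in the Cebpa or Cebpb windows shown. The Cebpb window was 81.6% G and C and the Cebpa window 66.4%, against a median of 52.4% over all promoters. A match is a description of letters and not of binding.

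Library totals were 9859803 to 13118534 reads in KO_TAM, 7639550 to 13077647 in WT_TAM and 10635143 to 11817517 in WT_SP. Levels are given as CPM, the reads of a gene scaled to its library's total and by the authors' size factor, and are compared within 1 table, because a library's factor differs between the tables. The smallest total belonged to the library labelled WT_TAM replicate 4, which stood apart: in the table of the genotype comparison its median correlation with the other WT_TAM libraries was 0.904, against 0.98 for each of those. Among KO_TAM libraries replicate 2 was the lowest, at 0.949. Relative to the other WT_TAM libraries, the genes of WT_TAM replicate 4 were shifted by GC content, with a median log2 difference of -0.43 among the 2570 genes lowest in GC and 0.38 among the 2570 highest (transcript GC of 55.15% or more). Cebpb (67.2% GC), Cebpa (62.6%), Spi1 (58.9%) and Nr1h3 (56.8%) fall in the highest class. Mitf (43.4%) falls in the lowest class and Maf (47.4%) in the next, where the median log2 difference was -0.30. Irf4 (47.6%), Pparg (50.2%) and Irf8 (51.7%) fall between these and the highest class. Mitochondrial genes took 0.432% to 1.85% of reads in KO_TAM, 1.12% to 6.58% in WT_TAM and 0.838% to 1.09% in WT_SP.

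Mapkap1, the floxed gene, was at 44.0, 54.1, 43.3 and 45.9 CPM in the KO_TAM libraries, against 71.1, 66.4, 59.7 and 30.7 CPM in the WT_TAM libraries. The library labelled WT_TAM replicate 4 had less than every KO_TAM library, so this gene went against its label, and reads summed over the gene do not test a deleted exon. Lyz2, the locus that carries Cre, was lower in every KO_TAM library, with 2744 to 15235 CPM in KO_TAM and 22293 to 33744 CPM in WT_TAM, and there the library labelled WT_TAM replicate 4 was the highest. Where leaving this library out altered a call or a direction of the 9 factors, or a count of calls given for a list, the value without it follows.

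Between sites, tumor macrophages held more Spi1, Mitf, Cebpa and Cebpb than splenic macrophages and less Irf8, Irf4, Nr1h3 and Pparg. The largest differences were those of Cebpa, 9.95-fold higher, and Irf4, at 0.105 of the splenic level, both on the CPM + 0.5 scale. In limma on log2(CPM + 0.5) with Benjamini-Hochberg adjustment over all genes, 4 of the 9 genes were called higher in WT_TAM and 4 lower at an adjusted p under 0.05, and only Maf was not called. Of all 14239 genes tested, 23.1% were called higher and 23.6% lower, 46.7% in all. With library totals alone, without the authors' size factors, the median log2 fold change of all genes moved to -0.52, against -0.07 with them, and 27.5% of calls were higher, against 49.4%; the 9 factors then still gave 4 higher and 4 lower. The groups did not overlap for the same 8 genes, 4 in each direction, against 26.3% of all genes higher and 29.8% lower, 56.1% in all. These 8 also had an unadjusted p under 0.05, against 53.9% of all genes. In bulk samples, fewer cells of a type and less RNA per cell cannot be told apart.

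Spi1, which encodes PU.1, had 609.8, 604, 465 and 546 CPM in WT_TAM against 169, 167 and 179 CPM in WT_SP. All 4 tumor libraries were above all 3 splenic libraries, and the splenic values lay within a narrow band. This was 3.21-fold, or 1.68 on the log2 scale (SE 0.17, adjusted p = 6.44e-05, limma).

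Mitf, whose protein drives lysosomal and osteoclast genes, had 39.9, 26.4, 32.2 and 30.5 CPM in WT_TAM and 5.85, 4.48 and 5.43 CPM in WT_SP. The lowest tumor library was far above the highest splenic one. Its log2 fold change of 2.50 (SE 0.21, adjusted p = 2.39e-05, limma) had the lowest p of the 9 genes.

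Cebpa, needed to form granulocyte and monocyte progenitors, had 14.7, 7.15, 8.83 and 56.4 CPM in WT_TAM and 0.846, 1.00 and 1.47 CPM in WT_SP. The splenic values rest on 12, 13 and 20 reads. The groups did not overlap, and the library labelled WT_TAM replicate 4 was well above the other 3. Fitted, the log2 fold change was 3.31 (SE 0.63, adjusted p = 0.0027, limma) with that library and 2.70 (SE 0.30, adjusted p = 2.04e-05) without it. A pseudocount of 2 gave 2.51, since the splenic level is low.

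Cebpb, which macrophages use to induce inflammatory genes and Arg1, had 2.62, 3.33, 4.28 and 14.4 CPM in WT_TAM against 0.423, 1.16 and 0.44 CPM in WT_SP. These values are 31, 34, 49 and 88 reads in WT_TAM and 6, 15 and 6 reads in WT_SP. Again the groups were apart and the highest value was that of the library labelled WT_TAM replicate 4. The log2 fold change was 2.26 (SE 0.54, adjusted p = 0.00827, limma), 1.77 without that library and 1.42 with a pseudocount of 2, and it stayed called in each.

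Maf, the driver of Il10 and complement C1q genes in macrophages, had 14.2, 24.2, 23.3 and 56.7 CPM in WT_TAM and 13.9, 15.3 and 15.2 CPM in WT_SP. The lowest tumor library lay among the splenic ones. Its log2 fold change of 0.80 (SE 0.40, adjusted p = 0.137, limma) was not called. Without WT_TAM replicate 1 it was 1.08 and called (adjusted p = 0.0419), and without the library labelled WT_TAM replicate 4 it was 0.43 (adjusted p = 0.0877).

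Irf8, a partner of PU.1 in monocytes, dendritic cells and B cells, had 453, 428, 419 and 402 CPM in WT_TAM and 629.6, 584 and 644 CPM in WT_SP. The tumor libraries lay close together, below every splenic library. The log2 fold change of -0.54 (SE 0.15, adjusted p = 0.0177, limma) was the smallest of the 8 called, and it was -1.02 with library totals alone, where all genes shifted as given above. Its call was lost without WT_SP replicate 1, 2 or 3 in turn, with adjusted p of 0.069, 0.0532 and 0.0878, and with no filter on low reads (adjusted p = 0.0614).

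Irf4, which acts in alternatively activated macrophages and in plasma cells, had 7.52, 6.07, 6.12 and 2.46 CPM in WT_TAM and 45.0, 62.1 and 54.4 CPM in WT_SP. Here the library labelled WT_TAM replicate 4 was the lowest, with 15 reads. The log2 fold change was -3.25 (SE 0.35, adjusted p = 0.0001, limma), and -2.94 without that library.

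Nr1h3, which encodes the sterol sensor LXRα, had 23.1, 17.7, 14.7 and 27.5 CPM in WT_TAM and 81.6, 83.9 and 82.7 CPM in WT_SP. The 3 splenic values were nearly equal and all above the tumor values. Its log2 fold change was -2.01 (SE 0.23, adjusted p = 0.000159, limma).

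Pparg, a nuclear receptor for fatty acids that supports lipid handling, had 6.25, 3.43, 6.03 and 2.46 CPM in WT_TAM and 30.0, 22.6 and 23.8 CPM in WT_SP. The tumor values rest on 74, 35, 69 and 15 reads. Splenic libraries were above tumor libraries without overlap, and the log2 fold change was -2.44 (SE 0.33, adjusted p = 0.0004, limma).

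**Figure D1:**
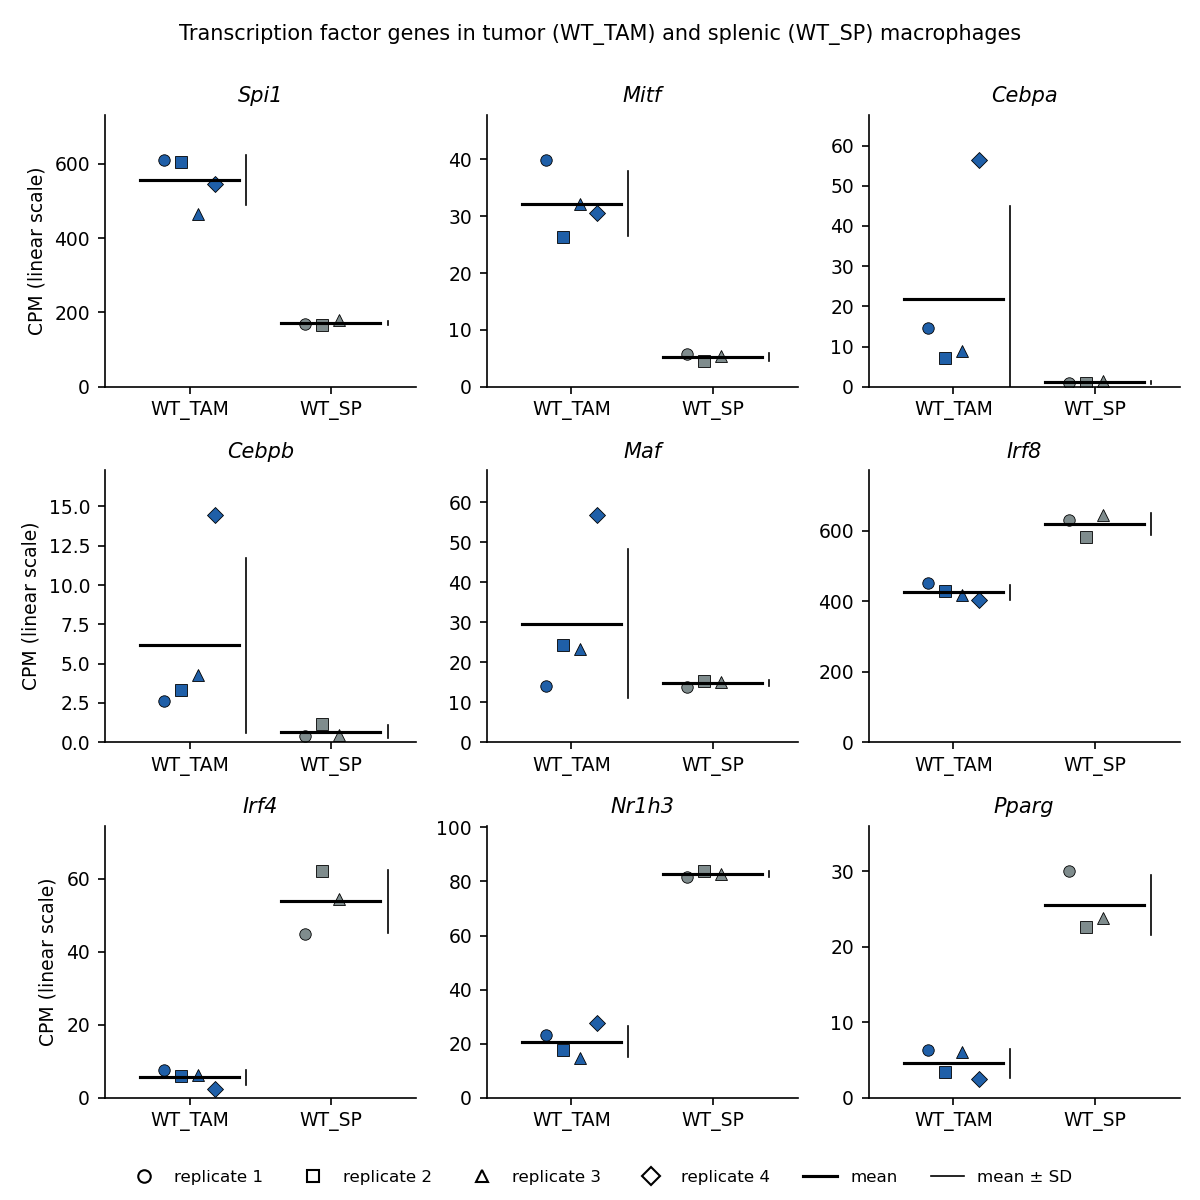
CPM of the 9 transcription factor genes (linear axis from 0, scales differ between panels) in 4 WT_TAM and 3 WT_SP libraries. Each point is a library with its replicate number as the shape, the thick line is the group mean and the thin line the mean ± SD, drawn only above 0. WT_TAM lies above WT_SP for Spi1, Mitf, Cebpa and Cebpb and below it for Irf8, Irf4, Nr1h3 and Pparg, and WT_TAM replicate 4 is the highest for Cebpa (56.4), Cebpb (14.4) and Maf (56.7).

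The splenic libraries also carried RNA of other blood cells. The 5 B cell markers summed to 9.18 to 71.3 CPM in WT_TAM and 5381 to 6414 CPM in WT_SP, and all 5 were detected in every WT_SP library and called lower in WT_TAM. Neutrophil markers summed to 6.73 to 31.5 CPM in WT_TAM and 858 to 2406 CPM in WT_SP, and plasma cell markers to 72.0 to 166 CPM in WT_TAM and 1960 to 3299 CPM in WT_SP. T cell markers reached 60.2 to 90.0 CPM in WT_TAM and 846 to 911 CPM in WT_SP, and dendritic cell markers 41.5 to 144 CPM in WT_TAM and 460.3 to 489 CPM in WT_SP. The 12 general macrophage markers summed to 34416 to 46659 CPM in WT_TAM and 3891 to 4169 CPM in WT_SP. Most of the tumor sum was Lyz2, at 25249 to 35695 CPM in WT_TAM and 1630 to 2098 CPM in WT_SP. Of the 12, 9 were called higher, with a median log2 fold change of 2.61, and Csf1r was at 0.69 and not called. Without the library labelled WT_TAM replicate 4, 11 of the 12 were called higher. The 5 red pulp markers, Spic and Vcam1 among them, summed to 252 to 662 CPM in WT_TAM and 3660 to 4071 CPM in WT_SP. Fibroblast markers were higher in the tumor libraries, at 440 to 985 CPM in WT_TAM and 8.88 to 48.1 CPM in WT_SP. The part of these cells in the values of Irf4, Irf8, Spi1 and the other genes was not tested.

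**Figure D2:**
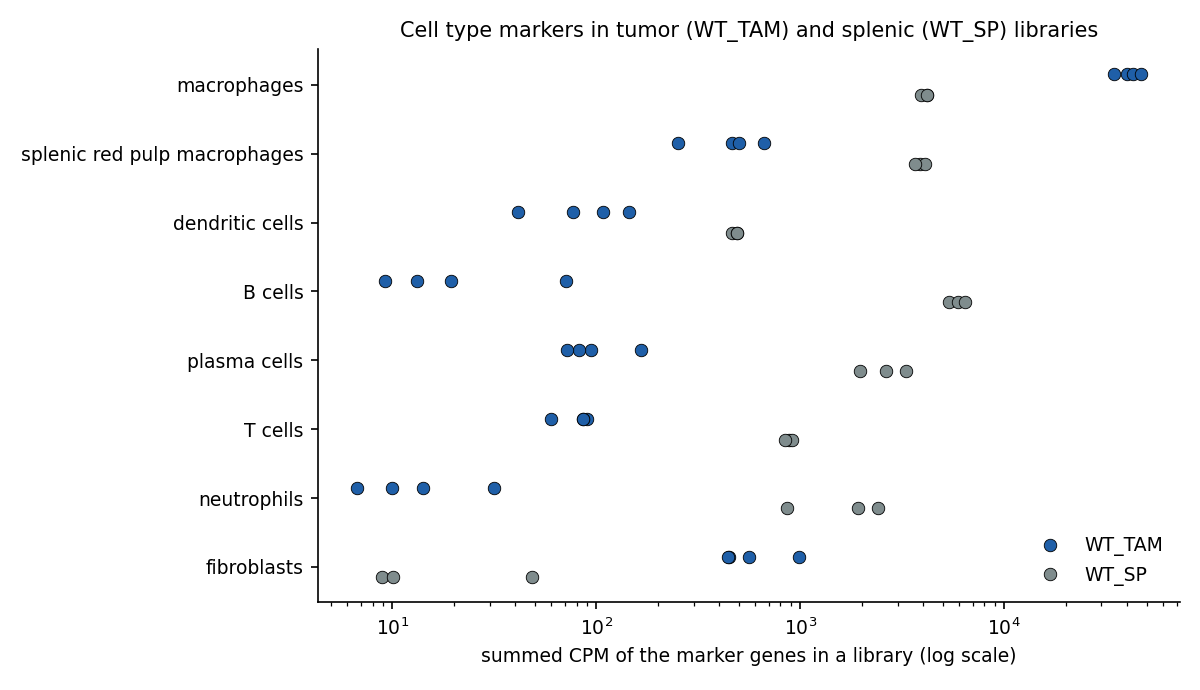
Summed CPM (log axis) of 8 marker lists in each of the 4 WT_TAM (blue) and 3 WT_SP (grey) libraries. B cell markers lie between 5381 and 6414 CPM in WT_SP and at most at 71.3 CPM in WT_TAM, while macrophage markers lie at 34416 CPM or more in WT_TAM and at most at 4169 CPM in WT_SP.

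Ratios between related genes within a library do not depend on the library's scale. Irf8 outnumbered Irf4 by 60.2, 70.5, 68.4 and 164 reads to 1 in WT_TAM and by 14.0, 9.39 and 11.8 to 1 in WT_SP, so the 2 genes were lower in tumor macrophages to unequal degrees. Nr1h3 to Pparg ratios, 2.43 to 11.2 in WT_TAM and 2.72 to 3.71 in WT_SP, overlapped, and so did Cebpb to Cebpa ratios, 0.178 to 0.485 in WT_TAM and 0.3 to 1.15 in WT_SP. Per kilobase of gene length, Spi1 was at 340 to 446 CPM and Spic, the factor of red pulp macrophages, at 0.649 to 1.33 CPM in WT_TAM. In WT_SP Spi1 was at 122 to 131 CPM per kilobase and Spic at 85.9 to 99.3. By reads the 2 genes were near equal there, with Spi1 to Spic ratios of 1.06, 0.952 and 1.18. Their order per kilobase in WT_SP thus depends on the Spi1 length used, 1368 bases against 2695 in all annotated exons.

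**Figure D3:**
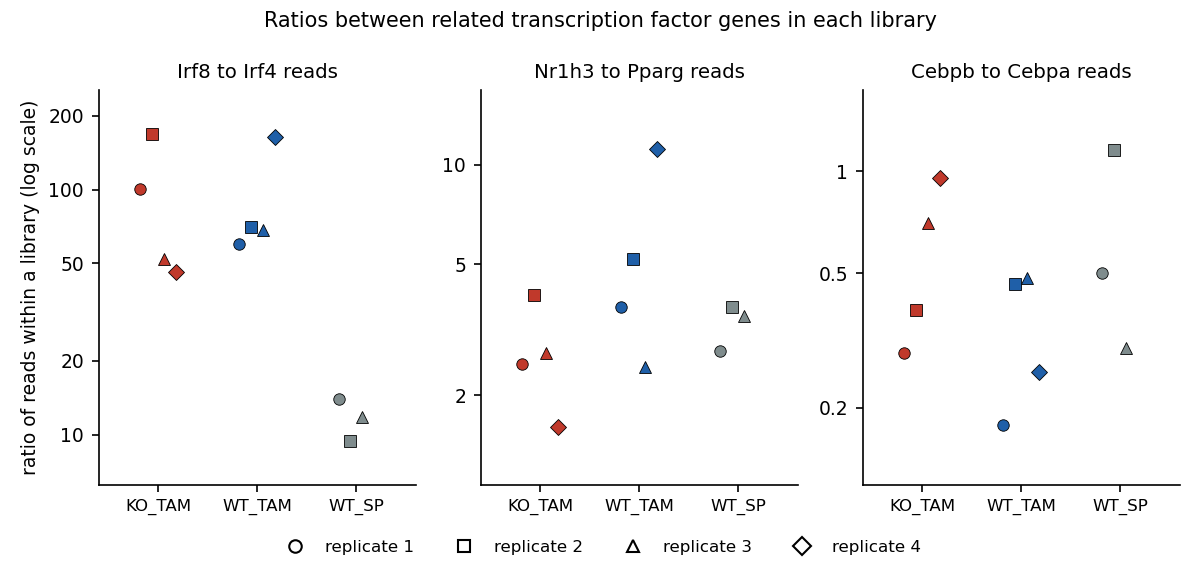
Ratio of reads (log axis) of 3 pairs of related genes in each KO_TAM, WT_TAM and WT_SP library, with the replicate number as the shape. Irf8 to Irf4 lies at 46.0 or more in every tumor library and at most at 14.0 in the splenic ones, and the other ratios overlap between at least 2 groups.

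The relatives of the 9 factors were taken from lists by family. Both ETS relatives of PU.1 were lower in tumor macrophages: Spib, a factor of B cells and plasmacytoid dendritic cells, at 1.97 ± 2.84 CPM in WT_TAM and 497 ± 36.7 CPM in WT_SP, and Spic at 1.69 ± 0.58 CPM in WT_TAM and 162 ± 12.1 CPM in WT_SP (SD, n = 4 and 3). Of 3 small Maf relatives tested, 2 were higher and none lower. Mafg was at 53.4 ± 6.21 CPM in WT_TAM and 14.96 ± 2.34 CPM in WT_SP (log2 fold change 1.81, SE 0.19), and Maff was higher by 1.62 on the log2 scale. Mafk, at 0.04, was not called, and without the library labelled WT_TAM replicate 4 it was called higher, at 0.64.

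Of 5 genes in the C/EBP list, Cebpe (log2 fold change 1.87), Cebpd (1.83) and Cebpg (0.99) were higher. Cebpz (-0.88), which is listed by its name only, was lower. Of 6 relatives in the IRF family none was higher and 3 were lower, Irf9 (-0.995), Irf3 (-0.99) and Irf2 (-0.60). Irf5, per kilobase the most abundant of them, was at 0.43 and not called. Without the library labelled WT_TAM replicate 4, Irf5 (0.66) and Irf1 (0.92) were called higher. Cebpz and Irf2 are named to complete their counts, as are other genes outside the rule for named genes, which were added after their values were seen.

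Among the LXR, PPAR and RXR genes listed with Nr1h3 and Pparg, the LXRβ gene Nr1h2 was called higher (0.50) and Rxrb lower (-0.83), of 4 tested. With library totals alone Nr1h2 was at 0.03 and lost its call, and without the library labelled WT_TAM replicate 4 Rxra (-0.52) was called lower as well. Of the 3 Mitf relatives Tfec (2.63) and Tfe3 (1.04) were higher and Tfeb (-1.11) was lower, and with library totals alone Tfe3 was at 0.57 and not called (adjusted p = 0.103, limma). Of 18 other myeloid factors 9 were higher and 5 lower, a median log2 fold change of 0.44 against -0.07 for all genes tested. The largest differences were those of Klf4 (3.70), Bach2 (-3.65) and Myb (-3.25), and Id2, the most abundant per kilobase, was higher (1.80). With library totals alone the counts were 7 higher and 7 lower, and without the library labelled WT_TAM replicate 4 they were 9 and 7.

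Genes that the literature links to each factor were read the same way, as descriptions of lists and not as tests of the factor. Over all genes tested, 23.1% were called higher and 23.6% lower. Of 11 PU.1-linked genes 8 were higher and 1, the B cell and myeloid kinase gene Btk (-1.06), was lower. Their median log2 fold change was 2.48. With library totals alone, 7 PU.1-linked genes were higher. The lists given below then had 6 higher for c-Maf, 3 for IRF4, 3 for LXR and 4 for Mitf. The scavenger receptor gene Msr1 was at 1199 ± 249.8 CPM in WT_TAM and 5.54 ± 0.593 CPM in WT_SP, and Cd14 at 2759 ± 366 CPM in WT_TAM and 41.3 ± 12.6 CPM in WT_SP. Itgam, which encodes CD11b, was higher by 4.09 on the log2 scale, and the splenic cells had been sorted for low CD11b. Csf1r (0.69) and Cybb (0.73) missed the threshold, and without the library labelled WT_TAM replicate 4 they were called, at 0.93 and 0.98.

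Of 8 genes linked to c-Maf, 7 were higher and 1, Cd163 (-3.52), was lower. C1qb, the most abundant of them, was at 4657 ± 2391 CPM in WT_TAM and 751.0 ± 82.7 CPM in WT_SP, a log2 fold change of 2.51 (SE 0.34). Folr2, a folate receptor gene, was at 108 ± 52.7 CPM in WT_TAM and 0.757 ± 0.425 CPM in WT_SP. Lyve1 was at 3.20 ± 2.05 CPM in WT_TAM and 0.047 ± 0.0814 CPM in WT_SP, close to no reads in the spleen.

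C/EBP-linked genes gave 4 higher and 1 lower of 6. Arg1, the arginase of alternatively activated macrophages, was at 5991 ± 1184 CPM in WT_TAM and 0.854 ± 0.177 CPM in WT_SP, and Ptgs2 at 271 ± 160.2 CPM in WT_TAM and 4.93 ± 2.37 CPM in WT_SP. Lcn2, an abundant product of neutrophils, was lower at 0.769 ± 0.579 CPM in WT_TAM against 108 ± 59.4 CPM in WT_SP. It moved with the neutrophil markers given above.

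Irf4 and Irf8 were lower in tumor macrophages, and most called genes of their lists were higher. Of 5 IRF4-linked genes 4 were higher and none lower, with Retnla at 560.0 ± 303 CPM in WT_TAM and 0.172 ± 0.0862 CPM in WT_SP, Mgl2 at 472 ± 94.3 CPM in WT_TAM and 0.843 ± 0.516 CPM in WT_SP, and Ccl17 at 43.4 ± 34.3 CPM in WT_TAM and 0.0981 ± 0.0422 CPM in WT_SP. Of 6 IRF8-linked genes 3 were higher and 1, Il18 (-1.92), was lower. Nos2, the inducible nitric oxide synthase gene, was at 341 ± 199 CPM in WT_TAM and 0.245 ± 0.0426 CPM in WT_SP, and Cst3, the most abundant of the list, was higher by 0.93. With library totals alone this list had 2 higher and 2 lower, and without the library labelled WT_TAM replicate 4 it had 4 higher, with Cybb, and 2 lower, with Il12b (-0.81).

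Of 9 LXR-linked genes 4 were higher and 1 lower, while Nr1h3 itself was lower. Apoe was at 4894 ± 2148 CPM in WT_TAM and 1168 ± 96.1 CPM in WT_SP, Pltp (2.17) and the cholesterol exporter gene Abca1 (2.15) were also higher, and Mylip (-2.22) was lower. Without the library labelled WT_TAM replicate 4 there were 5 higher and 1 lower. Of 5 PPARγ-linked genes tested only Plin2, the lipid droplet coat gene, was called, at 761 ± 193 CPM in WT_TAM and 78.1 ± 8.28 CPM in WT_SP. Cd36 (0.54) and Lpl (1.82) joined it without the library labelled WT_TAM replicate 4. Of 10 genes linked to Mitf and its relatives 5 were higher and 2 lower. Atp6v0d2, a subunit gene of the lysosomal proton pump, was higher by 5.32, Gpnmb by 4.90 and Ctsk by 4.81, whereas Acp5 (-1.69) and Rragd (-1.09) were lower. Without that library 7 were higher and 2 lower. The median log2 fold change was 2.31 over the c-Maf list, 3.48 for C/EBP, 0.83 for IRF8, 5.93 for IRF4, 0.74 for LXR, 0.48 for PPARγ and 0.86 for Mitf, against -0.07 for all genes. It was -7.27 over the ETS relatives, 1.62 for Maf, 0.99 for C/EBP, -0.25 for IRF, 0.14 for LXR, PPAR and RXR, and 1.04 for the relatives of Mitf. Without the same library the median was -0.05 for LXR, PPAR and RXR, a turn of direction, and 1.22 for the genes linked to Mitf. Where a splenic mean is under 1 CPM the fitted fold change depends on the pseudocount, and only levels are given for the genes at the lowest splenic levels.

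Between genotypes, none of the 9 factors was called in KO_TAM against WT_TAM, and the 2 groups overlapped for every one of them. The same holds for the table as a whole, where 0 of 12874 genes tested were called by limma, a share of 0%, with a smallest adjusted p of 0.102. At an unadjusted p under 0.05 there were 2367 genes, 18.4% of all, and 1 of the 9 factors. By limma voom 0 genes were called as well, and 2227 had an unadjusted p under 0.05. With a weight per library 387 genes were called, and the 9 factors gave 0 calls in all 17 alternatives. Groups did not overlap for 15.1% of all genes and for none of the factors.

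Pparg was the factor with the lowest p. It had 6.55, 4.86, 7.10 and 8.99 CPM in KO_TAM against 5.42, 2.97, 5.33 and 2.32 CPM in WT_TAM, which are 86, 47, 85 and 102 reads in KO_TAM and 74, 35, 69 and 15 reads in WT_TAM. Only KO_TAM replicate 2 lay within the WT_TAM range. The log2 fold change was 0.75 (SE 0.32, unadjusted p = 0.0417, adjusted p = 0.258, limma), and it stayed positive in all 17 alternatives, between 0.55 and 0.91, with adjusted p between 0.147 and 0.562. Leaving out the library labelled WT_TAM replicate 4 gave 0.55.

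Cebpa had 12.6, 4.24, 10.9 and 5.73 CPM in KO_TAM, against 12.8, 6.19, 7.80 and 53.3 CPM in WT_TAM. Its log2 fold change of -0.79 (SE 0.61, adjusted p = 0.483, limma) rested on the library labelled WT_TAM replicate 4, without which it was -0.15. Cebpb behaved alike, with 3.66, 1.65, 7.69 and 5.47 CPM in KO_TAM and 2.27, 2.88, 3.78 and 13.6 CPM in WT_TAM. Its log2 fold change was -0.09 (SE 0.56, adjusted p = 0.936) with that library and 0.42 without it. Maf, with 18.2, 10.6, 27.7 and 19.8 CPM in KO_TAM and 12.3, 21.0, 20.6 and 53.6 CPM in WT_TAM, was at -0.35 (SE 0.42, adjusted p = 0.66) with it and 0.05 without it.

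Spi1 had 461, 628, 370.2 and 476 CPM in KO_TAM, against 529, 523, 410.3 and 516 CPM in WT_TAM, a log2 fold change of -0.05 (SE 0.20, adjusted p = 0.903, limma). The 2 extremes of all 8 libraries were both KO_TAM libraries. Irf8 had 420.2, 420.0, 419.6 and 345 CPM in KO_TAM, against 393, 371, 369.5 and 380.3 CPM in WT_TAM, at 0.08 (SE 0.16, adjusted p = 0.797). Here 3 KO_TAM libraries lay above every WT_TAM library and the fourth below all of them.

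Irf4 was low in both genotypes, with 4.19, 2.48, 8.02 and 7.50 CPM in KO_TAM and 6.52, 5.26, 5.40 and 2.32 CPM in WT_TAM, and its log2 fold change was 0.12 (SE 0.41, adjusted p = 0.885, limma). Without the library labelled WT_TAM replicate 4 it turned to -0.16, also not called. Nr1h3 had 16.3, 19.6, 19.0 and 14.5 CPM in KO_TAM, against 20.1, 15.4, 12.97 and 26.0 CPM in WT_TAM, at -0.06 (SE 0.24, adjusted p = 0.907), with every KO_TAM library inside the WT_TAM range. Without the library labelled WT_TAM replicate 4 Nr1h3 turned to 0.11, also not called. For Mitf the values were 45.4, 21.8, 44.2 and 31.5 CPM in KO_TAM and 34.6, 22.8, 28.4 and 28.8 CPM in WT_TAM, and the log2 fold change of 0.27 (SE 0.26, adjusted p = 0.57) was not called. A p that misses the threshold does not show that the genotypes are alike, and the standard errors of Cebpa and Cebpb are wide.

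**Figure D4:**
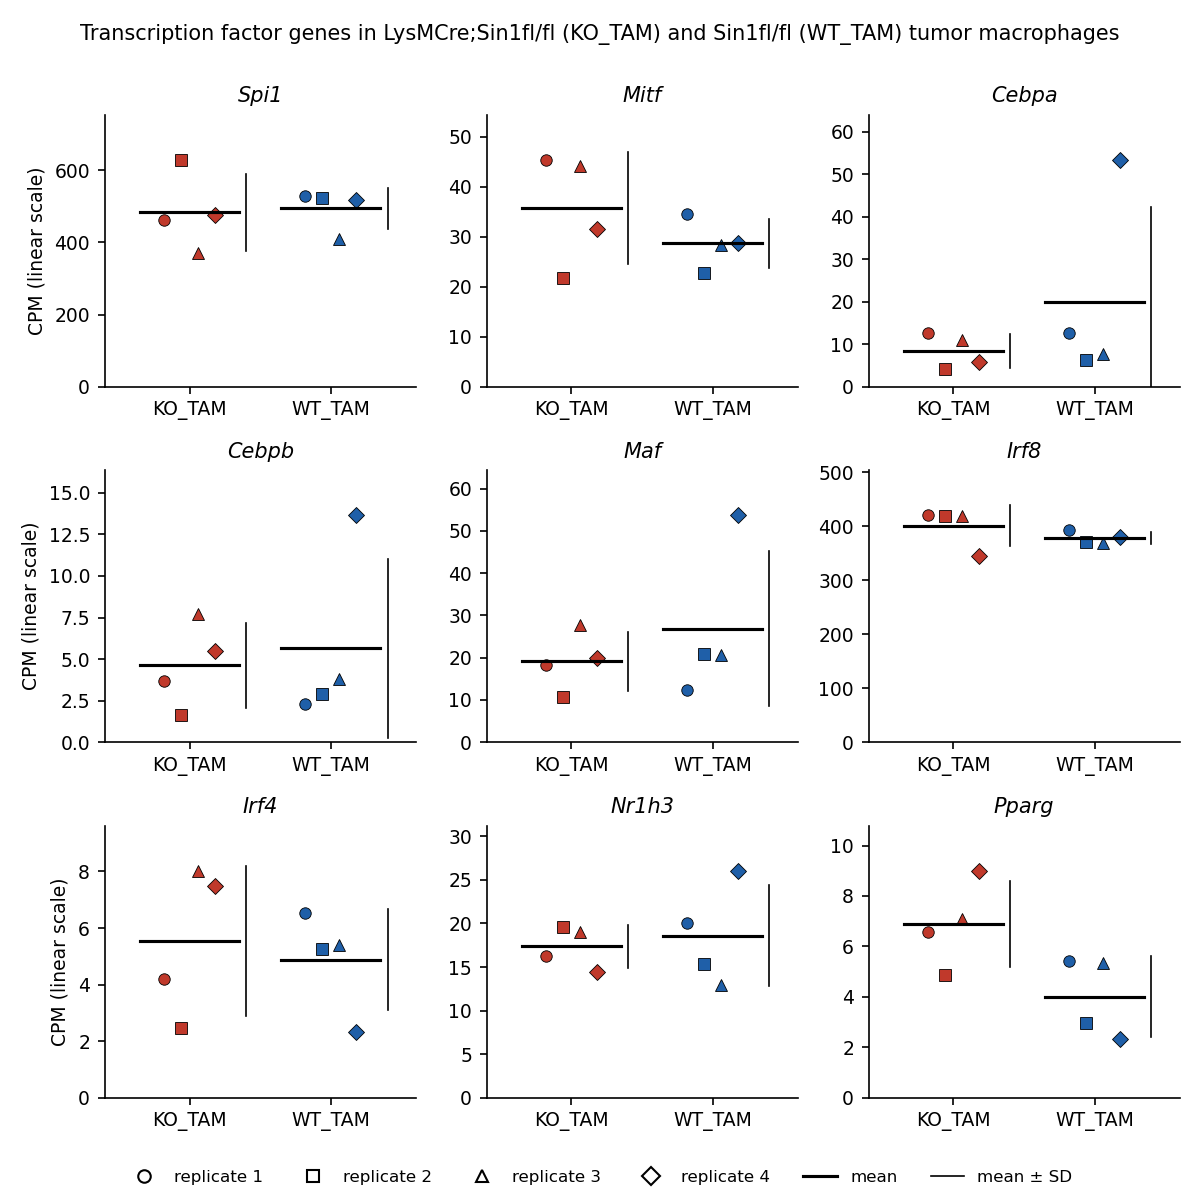
CPM of the 9 transcription factor genes (linear axis from 0, scales differ between panels) in 4 KO_TAM and 4 WT_TAM libraries, drawn as points per library with the mean (thick line) and mean ± SD (thin line, drawn only above 0). The groups overlap in every panel, and WT_TAM replicate 4 is the highest library for Cebpa (53.3), Cebpb (13.6), Maf (53.6) and Nr1h3 (26.0).

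Sums over several marker lists were apart between the genotypes, although no marker was called in the main fit. Fibroblast markers summed to 30.6 to 236 CPM in KO_TAM and 388 to 853 CPM in WT_TAM, and all 6 had a negative log2 fold change. The macrophage markers summed to 11114 to 22537 CPM in KO_TAM and 30387 to 44108 CPM in WT_TAM. Most of the WT_TAM sum was again Lyz2, the locus that carries Cre, at 2744 to 15235 CPM in KO_TAM and 22293 to 33744 CPM in WT_TAM. The median log2 fold change of the 12 was -0.09, with 4 positive and 8 negative. This sum thus mainly follows Lyz2 and does not measure the share of macrophages. Endothelial markers summed to 69.2 to 137 CPM in KO_TAM and 23.6 to 57.1 CPM in WT_TAM. Most of this was Pecam1, at 96.6 ± 26.6 CPM in KO_TAM against 40.6 ± 14.7 CPM in WT_TAM, while Cdh5, Tek and Cldn5 were under 1 CPM on average in both groups. The list of eosinophil, basophil and mast cell markers, at 113 to 527 CPM in KO_TAM and 11.5 to 87.1 CPM in WT_TAM, was mostly Siglecf, at 219 ± 180.2 CPM in KO_TAM against 46.8 ± 31.4 CPM in WT_TAM. Its other members went both ways, with Prg2 at 13.4 ± 9.51 CPM in KO_TAM against 2.38 ± 1.18 CPM in WT_TAM, and Cpa3 at 3.04 ± 5.24 CPM in KO_TAM against 6.75 ± 4.42 CPM in WT_TAM. Red blood cell markers overlapped, at 25.9 to 261 CPM in KO_TAM and 152 to 729 CPM in WT_TAM, and all 5 had a negative log2 fold change with an unadjusted p under 0.05 (median -2.28). Over all genes, the median log2 fold change was 0.19 among the 2570 genes lowest in GC and -0.19 among the 2570 highest. The part of these markers and of GC content in the values above was not tested.

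Ratios of related genes overlapped between the genotypes. Irf8 to Irf4 was 46.0 to 169 in KO_TAM and 60.2 to 164 in WT_TAM, Nr1h3 to Pparg 1.61 to 4.04 in KO_TAM and 2.43 to 11.2 in WT_TAM, and Cebpb to Cebpa 0.291 to 0.954 in KO_TAM and 0.178 to 0.485 in WT_TAM.

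**Figure D5:**
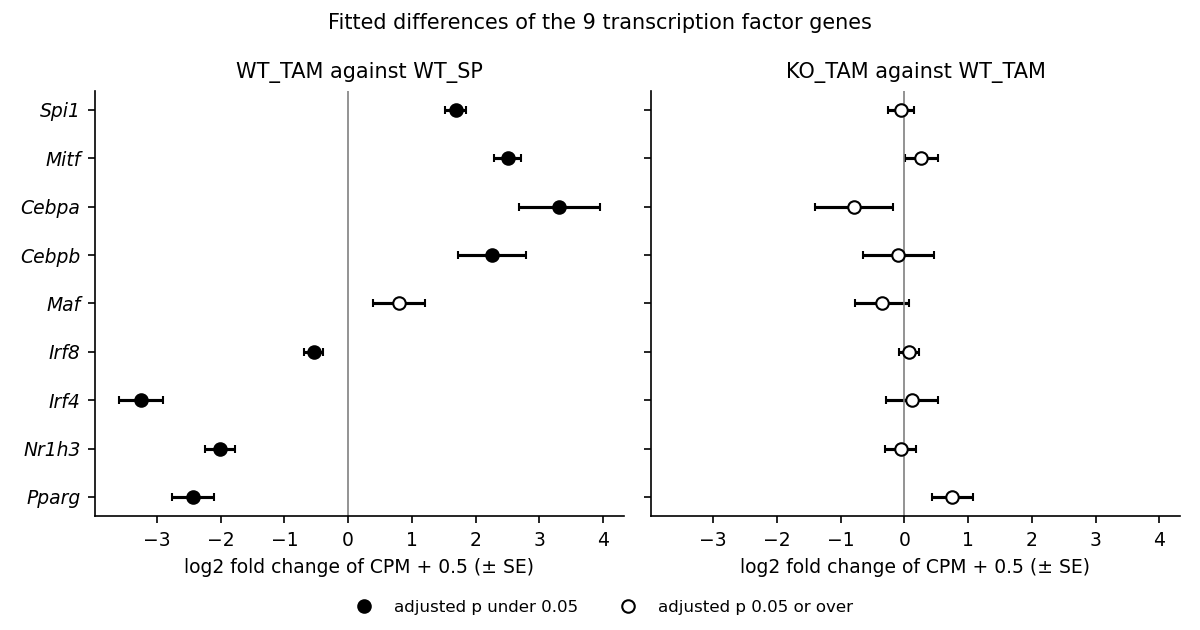
Log2 fold change of CPM + 0.5 with its standard error for the 9 genes in WT_TAM against WT_SP (left) and KO_TAM against WT_TAM (right), with filled points for an adjusted p under 0.05 in limma. Between sites 8 points are filled, from -3.25 (Irf4) to 3.31 (Cebpa), and between genotypes none is, from -0.79 (Cebpa) to 0.75 (Pparg).

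No relative and no linked gene was called between the genotypes either. Groups did not overlap for 4 of 11 PU.1-linked genes, Itgam, Cybb, Tlr4 and Btk, all higher in KO_TAM, against 6.39% of all genes in that direction. They also did not overlap for 3 of 8 genes linked to c-Maf, C1qa, C1qb and C1qc, all lower in KO_TAM, against 8.73%. C1qb was at 1855 ± 439 CPM in KO_TAM, against 4209 ± 2371 CPM in WT_TAM (log2 fold change -1.07, SE 0.34, adjusted p = 0.175, limma). C1qa was at -1.29 and not called. Without both the library labelled WT_TAM replicate 4 and KO_TAM replicate 2 it was called, at -0.66 (adjusted p = 0.0488, limma). In that fit 65 of 13002 genes were called, 21 higher and 44 lower. Among the marker lists, 2 macrophage markers and 1 fibroblast marker were then called lower and 1 monocyte marker higher.

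Among linked genes of the other factors, the groups were apart for Nos2, at 1056 ± 452 CPM in KO_TAM against 299 ± 169 CPM in WT_TAM, for Cd36, at 269 ± 104 CPM in KO_TAM against 85.1 ± 41.6 CPM in WT_TAM, and for Atp6v0d2, at 119 ± 31.9 CPM in KO_TAM against 48.5 ± 11.04 CPM in WT_TAM. Their adjusted p were 0.123, 0.146 and 0.102. By list, the groups were apart and higher in KO_TAM for 2 of 6 IRF8-linked genes, Nos2 and Cybb. The counts were 1 of 5 for PPARγ, 1 of 10 for Mitf, and 0 of 5 for C/EBP, 0 of 5 for IRF4 and 0 of 9 for LXR. Of all genes, 6.39% were higher without overlap, so these genes are not read as a result about their lists. Of the relatives, Cebpe had 30.0 ± 11.1 CPM in KO_TAM, against 11.4 ± 2.90 CPM in WT_TAM (log2 fold change 1.33, SE 0.30, adjusted p = 0.113), and Irf2 and Zeb2 were also higher without overlap. These were 1 of 5 genes in the C/EBP family list, 1 of 6 in the IRF list and 1 of 16 other myeloid factors. Of the IRF relatives named in this text, Irf1, Irf2, Irf3, Irf5 and Irf9 all have cells that were restored before the genotype fit. Median log2 fold changes ran from -0.62 over the genes linked to c-Maf to 0.89 over those linked to C/EBP, with 0.37 for PU.1, -0.48 for IRF8, 0.19 for IRF4, -0.01 for LXR, 0.31 for PPARγ and 0.44 for Mitf. Without the library labelled WT_TAM replicate 4 they were -0.62 for c-Maf, 0.67 for C/EBP, 0.22 for PU.1, -0.25 for IRF8, 0.19 for IRF4, 0.04 for LXR, 0.15 for PPARγ and 0.16 for Mitf. Of the 9 factors themselves the median was -0.05, and 0.08 without that library. The most abundant genes per kilobase of several lists gave no call: Irf1 at 0.71, Id2 at 0.44, Arg1 at 0.52, Retnla at 1.66, Apoe at -0.79 and Plin2 at 0.67 on the log2 scale. The genes named here because their groups were apart were chosen after their values were seen.

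Levels can be ranked between genes only per kilobase of gene length. The length used is the one the deposited values imply, which is shorter than all annotated exons together. It is 1930 against 6196 bases for Mitf and 1748 against 2515 bases for Nr1h3. The orders below hold for that length only, and that of Mitf and Nr1h3 depends on it. In KO_TAM the median CPM per kilobase was 343 for Spi1, 147 for Irf8, 19.6 for Mitf, 10.1 for Nr1h3, 4.24 for Maf, 3.84 for Pparg, 3.21 for Cebpb, 3.18 for Cebpa and 1.24 for Irf4. Neighbours from Maf to Irf4 overlapped in their ranges, so their order is not resolved. In WT_TAM, in the table of the site comparison, the order was Spi1 (420.5), Irf8 (148), Mitf (16.2), Nr1h3 (11.7), Maf (5.30), Cebpa (4.48), Cebpb (2.68), Pparg (2.66) and Irf4 (1.30), and neighbours from Mitf on overlapped. In WT_SP it was Irf8 (221), Spi1 (124), Nr1h3 (47.3), Pparg (13.4), Irf4 (11.6), Maf (3.38), Mitf (2.81), Cebpa (0.382) and Cebpb (0.309), where Pparg overlapped with Irf4 and Cebpa with Cebpb. Spi1 thus led in both tumor groups and Irf8 in the spleen, without overlap between the 2 genes in any group.

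Over the 11 libraries the genes outside the set whose log2(CPM + 0.5) was most like each factor, among 12732 genes tested in both comparisons, were as follows. For Spi1 they were Arpc1b (Pearson r = 0.995) and 1810043G02Rik (0.988), for Mitf Gatm (0.992) and Mgl2 (0.985), and for Irf4 Kynu and Il27ra (0.99 each). Cebpa was most like Mrps25 (0.987) and Guca1a (0.977), Cebpb like Plxna1 (0.977) and Psma6 (0.969), and Maf like Hmg20b (0.958) and Hsp90aa1 (0.957). Nr1h3 was most like BE692007 (0.986) and Tmc6 (0.983), Pparg like Bcl2 (0.986), and Irf8 like Slamf6 (0.973) and Scaf11 (0.965). These correlations span tumor and spleen together and include the library labelled WT_TAM replicate 4, and none was computed within a group or without that library.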

How the data were processed

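RNA sequencing values of 11 libraries came in 2 tables, 1 for the genotype comparison (35118 genes) and 1 for the site comparison (35597 genes). Per the submitters' processing notes, TopHat2, HISAT2, HISAT, SAMtools, HTSeq and DESeq2 were used with build mm10. The sources used here give neither their roles and versions nor the annotation and strand setting. The deposited values are treated as a score: library size, gene length and a size factor had been divided out, as tested on the values, and 12205 and 12492 genes hold values below 0 in the genotype and site tables. Reads were recovered from these deposited scores, and 99.9475% of nonzero genotype values and 100% of site values were whole to 1e-05 reads. Between genotypes, 98 cells of 35 genes in the table had been altered, mostly by round amounts. The 49 in WT_TAM were replaced from the site table. Of the 49 in KO_TAM, those with a single fitting value were restored by 1 of 54 round amounts. Cells of Fdps had 2 candidate values, and this gene, 1 of the 35, was left out of the genotype comparison. None of the 9 factors was affected.

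CPM was computed per library total and the authors' size factor, and a count of 3 reads is 0.229 to 0.393 CPM before the factor, for counting error only. A gene was tested if it had 15 reads in all and if the CPM that 10 reads have in a library of median size was reached in a number of libraries no smaller than the smaller group. Differences were tested with limma 3.58.1 (R 4.3.3; trend and robust empirical Bayes, two-sided) on log2(CPM + 0.5), with Benjamini-Hochberg adjustment over all genes of a table and a threshold of 0.05. Because the unit is not a deposited count, no count model was the main test. Fits were also run on simulated counts with the same dispersion for every gene, no library that stood apart and changes only in the more abundant genes. These runs check the code and do not show how well changes are found in genes as low or variable as Cebpa and Cebpb. Tables and figures used Python 3.11.15, numpy 2.4.6, pandas 2.3.3 and matplotlib 3.10.9.

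The members and the gene lists were chosen with earlier results of these data known. Named genes are the members, the targeted gene and the Cre locus, and in each list the gene with the most CPM per kilobase and the called genes with the largest changes; others were named after their values were seen. Some genes of the families and of the likeness ranking are not reported here. Replicate numbers were not used to pair libraries in the main fits. Whether a tumor and a splenic library of the same number share a mouse is not in the labels. Same-numbered libraries correlated in their deviations at -0.162 to 0.198 between genotypes and -0.094 to 0.098 between sites. For libraries of different numbers this was -0.318 to 0.295 between genotypes and -0.1 to 0.158 between sites. With so few libraries these correlations cannot decide whether libraries are paired. List counts with library totals alone and without the libraries that stand apart were added after seeing the data.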

Additional observations from a re-analysis of the deposited data

Results flagged for a closer look

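In 7 of 33 groups of 4 libraries, 1 library lay far from the other 3, with a gap to its nearest neighbour above 0.829 of the group's range; chance flags about 1 in 20 groups. The library labelled WT_TAM replicate 4 accounted for 5 of them. Cebpa was at 53.3 CPM there in the genotype table, against 6.19 to 12.8 CPM in the other WT_TAM libraries, and at 56.4 CPM in the site table, against 7.15 to 14.7 CPM. Cebpb was at 13.6 CPM in the genotype table, against 2.27 to 3.78 CPM, and at 14.4 CPM in the site table, against 2.62 to 4.28 CPM. Its Irf8 to Irf4 ratio was 163.6, against 60.2 to 70.5. Both tables draw on the same reads of this library, so the paired entries for Cebpa and Cebpb are not independent. Its shift with GC content and its low Mapkap1 level stand beside these values, and their part was not tested.

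Spi1 was low in WT_TAM replicate 3 in the genotype table, at 410.3 CPM against 516 to 529 CPM in the other WT_TAM libraries. Irf8 was low in KO_TAM replicate 4, at 345 CPM against 419.6 to 420.2 CPM in the other KO_TAM libraries.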

How the results depend on the processing

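Between genotypes the 9 factors gave no call in any of 17 alternatives, and the count of all genes called, 0 as reported, was 98 with no filter on low reads, 387 with a weight per library, 80 with all 11 libraries in 1 fit, 65 without both libraries that stand apart and 4 with the deposited cells as they stand; it was 0 in each fit that left out 1 library. Directions turned in 20 of 153 fits of a factor, none of them called. With library totals alone Spi1 was at 0.021 and Nr1h3 at 0.011, and with limma voom Cebpb was at 0.091. With a weight per library Maf was at 0.24, Cebpa at 0.024, Cebpb at 0.64 and Nr1h3 at 0.068. Without both libraries that stand apart Maf was at 0.30, Cebpa at 0.11, Cebpb at 0.78 and Nr1h3 at 0.054. Leaving out 1 library gave -0.18 to 0.070 for Spi1, -0.64 to 0.050 for Maf, -0.37 to 0.42 for Cebpb, -0.16 to 0.42 for Irf4 and -0.21 to 0.11 for Nr1h3. The cause was not tested.

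Between sites the directions of the 9 factors held in all 14 alternatives. Irf8 lost its call in 4 of them, named above, and Maf gained one in 1. Genes called numbered 6651 as reported, 7764 with library totals alone, 9527 with a weight per library and 4977 to 9133 when 1 library was left out, with the highest count without the library labelled WT_TAM replicate 4. With the replicate number as a block, 0 genes were called between genotypes and 9117 between sites. In the site fit with this block, the library labelled WT_TAM replicate 4 has no partner and drops out of the contrast. Whether libraries of the same number share more than the number is not in the labels. Low read counts limit Cebpb and Cebpa in WT_SP and Irf4 and Pparg in the tumor groups.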
